A study of Callithrix jacchus with 4 samples.

Results

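Vip interneurons were examined as the nuclei annotated Inh_Vip in single-nucleus RNA sequencing of cortex from the marmoset Callithrix jacchus, a primate with a small and nearly smooth brain. All nuclei carrying this label at either age were taken, which gave 1652 of 36592 nuclei (4.51%), 1422 of them neonatal and 230 adult. The tissue was somatosensory cortex, as the labels give it, of wild-type animals with no treatment. One protocol field of the labels also names motor cortex, and the text on nuclei extraction speaks of cerebellum. The neonatal group (D0, age 0 in the labels) held 2 libraries and the adult group (Y2, 2 years) held 2 libraries, each from a different animal. The batch number of a library equalled its replicate number at either age, which let each age difference be read within a batch too. Library and animal cannot be told apart, because each animal gave 1 library. The replicates sample separate animals, and the p-values below rest on 2 animals per age. Those from limma also rest on a spread shared over types or pairs.

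Vip interneurons are GABAergic cells of the cortical circuit that are named for vasoactive intestinal peptide. They arise in the caudal ganglionic eminence, as do most Lamp5 interneurons, whereas Sst and Pvalb interneurons arise in the medial ganglionic eminence. In the mature cortex many Vip cells inhibit other interneurons, above all Sst cells, and thereby release projection neurons from inhibition. For this reason their number was set against each of the other interneuron types and against each projection neuron type.

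The label rests on the authors' annotation by marker genes. VIP, ADARB2 and GAD1, the markers that define these cells, could not be checked, since the deposited table gives the age, replicate, batch, cluster and cell type of each nucleus and gene values were not analysed here. Of the 10 annotated types 4 were interneurons (Inh_Vip, Inh_Lamp5, Inh_Pvalb, Inh_Sst) and 4 projection neurons: corticothalamic (CthPN), subcerebral (ScPN), callosal (CPN) and Layer IV. The glia were precursors of oligodendrocytes (OPC) and astrocytes (Astro). Libraries held 5622 to 14142 nuclei and 604 to 2919 interneurons. The barcodes carried 4 library suffixes that ran up to 5 with 3 absent, and each library had its own. A barcode of 66 Inh_Vip nuclei (4.00%) also occurred in another library, against 3.57% of all nuclei, and 0 barcodes were Inh_Vip in more than 1 library.

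Vip nuclei took a larger share of all nuclei in both neonatal libraries than in both adult libraries. D0 replicate 1 held 618 Inh_Vip nuclei among 6482 nuclei, a share of 9.53% (exact Clopper-Pearson 95% interval 8.83% to 10.3%). D0 replicate 2 held 804 among 14142, or 5.69% (5.31% to 6.08%). Y2 replicate 1 held only 52 among 5622, or 0.925% (0.692% to 1.21%), and Y2 replicate 2 held 178 among 10346, or 1.72% (1.48% to 1.99%). None of the 4 intervals overlapped. Such intervals describe counting error alone, not the spread between animals. By number Inh_Vip was the 5th and 7th most numerous of 9 types present in the D0 libraries, and the 8th of 10 in both Y2 libraries.

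The animals of an age differed more in their Vip share of all nuclei than in the share of any other interneuron type. At D0 the share was 1.68-fold higher in replicate 1 than in replicate 2, while the higher of the 2 D0 shares exceeded the lower by 1.16-fold for Inh_Sst and by 1.18-fold for Inh_Pvalb. At Y2 the Vip share was 1.86-fold higher in replicate 2 than in replicate 1, while the corresponding values were 1.17-fold for Inh_Sst, 1.09-fold for Inh_Pvalb and 1.12-fold for Inh_Lamp5. The counting intervals of the 2 Y2 libraries overlapped for Inh_Sst, Inh_Pvalb and Inh_Lamp5 but not for Inh_Vip. Replicate 1 thus had the higher Vip share at D0 and the lower one at Y2. The D0 share was 10.3-fold that of Y2 in batch 1, and 3.30-fold that of Y2 within the other batch. There being 1 library per age and batch, no test could be made of whether the batches differed.

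Over all nuclei, limma on logit shares put the D0 odds of being Inh_Vip at 6.20 times those of Y2, with a 95% interval of 1.99 to 19.3 and adjusted p = 0.0354 (2 libraries per age). Among the 10 types 30% passed this test. The call was lost without D0 replicate 1 (adjusted p = 0.231), without D0 replicate 2 (0.191) and without Y2 replicate 1 (0.127), each time with the same direction, and in the quasi-binomial model (0.298).

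**Figure D1:**
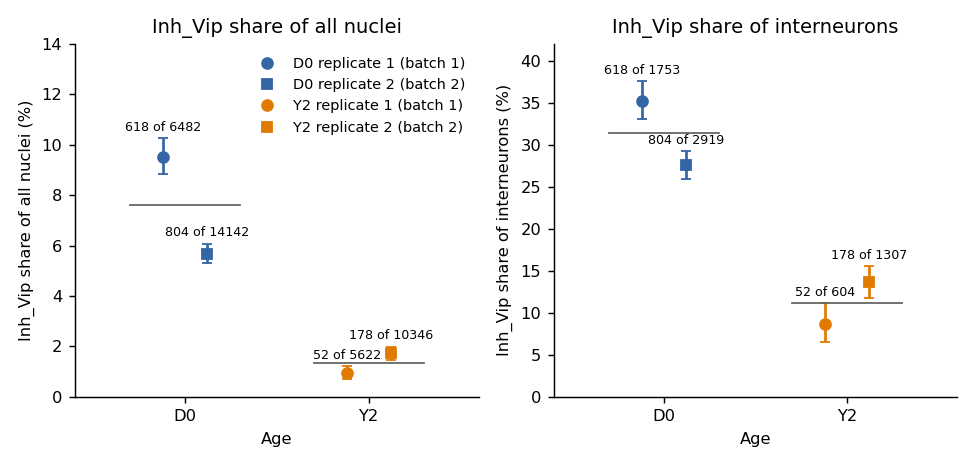
Share (%, y axis) of Inh_Vip nuclei among all nuclei (left) and among interneurons (right) by age (x axis), with 1 point per library, bars for exact 95% intervals of counting error, horizontal lines for the mean of 2 libraries and the counts beside each point. Both D0 libraries lie above both Y2 libraries in each panel, and replicate 1 is the higher library at D0 but the lower one at Y2.

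Within the interneurons, the Vip share does not depend on how many projection neurons or glia were captured. Inh_Vip made up 35.3% of 1753 interneurons in D0 replicate 1 and 27.5% of 2919 in D0 replicate 2. It made up 8.61% of 604 interneurons in Y2 replicate 1 and 13.6% of 1307 in Y2 replicate 2. The neonatal mean was 31.4% ± 5.45 (SD, n = 2) and the adult mean 11.1% ± 3.54 (SD, n = 2), so the age difference exceeded the spread between animals. By limma, Vip odds within interneurons at D0 exceeded those at Y2 by a factor of 3.71, with a 95% interval of 2.26 to 6.10 and adjusted p = 0.000583. The fit pooled the spread over all 4 interneuron types, so this p-value and interval do not rest on Inh_Vip alone. The 4 shares sum to the whole and are not independent, and Inh_Lamp5 had no D0 nuclei. With the replicate number as a block the adjusted p was 0.0130 (limma). The log odds difference (Y2 minus D0) was then -1.31, with a 95% interval of -2.04 to -0.586. As 100% of the 4 interneuron types passed in this set, the call does not set Inh_Vip apart from the others. The call was lost without D0 replicate 1 (adjusted p = 0.0692, limma) and in the quasi-binomial model (adjusted p = 0.0789). In the count of nuclei Inh_Vip was the 2nd of 3 interneuron types in both D0 libraries, behind Inh_Sst, and the 4th and 3rd of 4 in Y2 replicates 1 and 2.

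All neonatal Vip nuclei formed cluster 12 (1422 nuclei, the 12th largest of 34 clusters), and all adult Vip nuclei formed cluster 27 (230 nuclei, the 31st largest). Neither cluster held a nucleus of the other age. With libraries weighted equally, replicate 1 contributed 62.6% of cluster 12 and 35.0% of cluster 27, so both animals of an age were present in each. Inh_Pvalb likewise formed 1 cluster per age, whereas Inh_Sst formed 2 clusters at D0 (11 and 20) and 1 at Y2 (22). The adult Vip cluster was almost the same size as the adult Lamp5 cluster 33 (229 nuclei). Per the study's methods all libraries were clustered together after batch correction. Without gene values the split by age describes the annotation and was not tested as a difference between the cells.

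**Figure D2:**
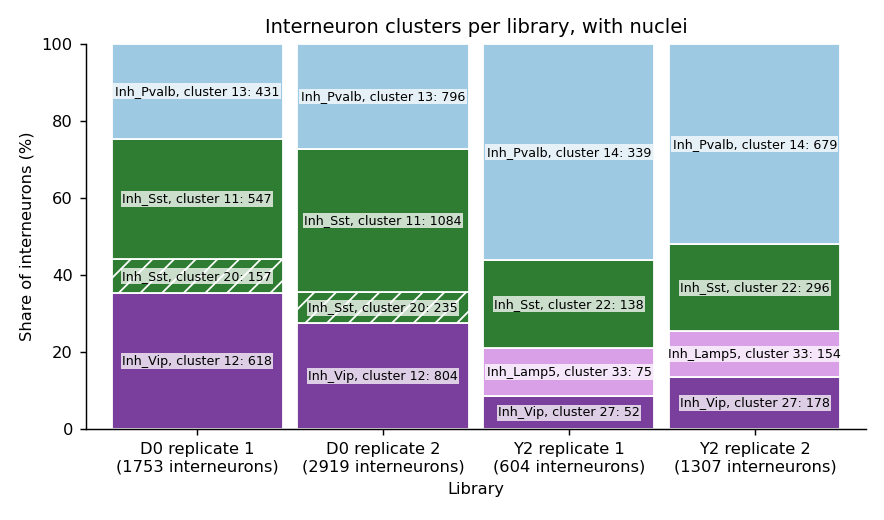
Share of interneurons (%, y axis) in each interneuron cluster for each of the 4 libraries (x axis), coloured by annotated type, with the number of nuclei written in each segment and cluster 20 hatched. Inh_Vip (purple, at the bottom) takes 35.3% and 27.5% of the D0 bars and 8.61% and 13.6% of the Y2 bars, and Inh_Lamp5 appears only in the Y2 bars.

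The ratios to other types were fitted for all 45 pairs of types on the log2 scale, of which 28.9% passed the test (limma, Benjamini-Hochberg over all pairs). Of the 9 pairs with Inh_Vip 3 passed, those with Layer IV, CthPN and Inh_Lamp5, and 5 had an unadjusted p under 0.05. Such unadjusted values were also common among pairs without Inh_Vip, as with Inh_Sst for Layer IV (0.0212) and ScPN (0.0209, limma). They were not counted over all pairs in any setting, so the Vip numbers have no share to be read against. Neither count therefore sets Inh_Vip apart. Fewer Vip nuclei and more partner nuclei give the same lower ratio at Y2, and these counts cannot tell them apart. The pairs share their Vip counts and are not independent. The passes with Layer IV and CthPN depended on the pairs with Inh_Lamp5, which has no D0 nuclei: with the 36 pairs left after removing that type, 0% passed, as did 0 of the 8 Vip pairs (limma, of which 4 lay below 0.05 before adjustment). The quasi-binomial model gave a p for 8 of the 9 Vip pairs, of which 0 passed and 1 had an unadjusted p under 0.05. Among all 45 pairs 1 passed in that model. With the replicate number as a block, 57.8% of the 45 pairs passed and 5 of the Vip pairs did, those with ScPN and Inh_Pvalb being added. These block calls rest mainly on a spread shared over pairs that are not independent. In limma that shared spread counted as 19.6 degrees of freedom, against 2.83 without the block. With the block and without Inh_Lamp5, 0 of 8 Vip pairs passed, with adjusted p = 0.0542 for both Layer IV and CthPN (limma). For 7 of the 9 Vip ratios both libraries of one age lay beyond both of the other, against 77.8% of all pairs and 72.2% of the pairs without Inh_Lamp5.

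Somatostatin interneurons, whose dendrite-targeting inhibition Vip cells are known to restrain, gave the smallest fitted age difference of the Vip ratio among the neuronal types. There were 87.8 Inh_Vip nuclei per 100 Inh_Sst nuclei in D0 replicate 1 (95% interval of the ratio 0.787 to 0.979) and 61.0 in D0 replicate 2 (0.558 to 0.666). In the adults there were 37.7 in Y2 replicate 1 (0.268 to 0.522) and 60.1 in Y2 replicate 2 (0.496 to 0.727). D0 replicate 2 and Y2 replicate 2 were thus nearly equal, and their counting intervals overlapped. The age difference reached 2.33-fold in batch 1 but 1.01-fold in batch 2. On average the ratio was 1.53-fold higher at D0 (95% interval 0.383 to 6.12, adjusted p = 0.519, limma), so a difference of several fold in either direction lies within the interval.

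Cluster 20, a neonatal cluster annotated Inh_Sst, bears on this ratio. The authors' label of this cluster could not be checked here without gene values. Inh_Sst had 2 clusters at D0 and Inh_Lamp5 had 0. Several clusters at D0 also occurred for CPN (5), CthPN (4) and ScPN (3). Because Inh_Lamp5 has no D0 nuclei, cluster 20 was also counted apart from Inh_Sst and as Inh_Lamp5. Whether it belongs to that type was not tested. It held 157 and 235 nuclei in D0 replicates 1 and 2. Set against the other neonatal Sst cluster alone (cluster 11), Vip nuclei numbered 113 and 74.2 per 100 in D0 replicates 1 and 2. The age difference without cluster 20 became 3.00-fold within batch 1 and 1.23-fold within batch 2, or 1.92-fold on average.

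Parvalbumin interneurons, the fast-spiking cells that inhibit the soma of projection neurons, stood above Vip cells in number at Y2 and below them at D0. There were 143 Inh_Vip nuclei per 100 Inh_Pvalb nuclei in D0 replicate 1 and 101 in D0 replicate 2, but 15.3 in Y2 replicate 1 and 26.2 in Y2 replicate 2. In D0 replicate 2 the types were almost level, with 804 against 796 nuclei, while Pvalb nuclei were the more numerous by far in both adult libraries. The ratio was 5.97-fold higher at D0 (95% interval 1.47 to 24.2), ranging from 3.85-fold in batch 2 up to 9.35-fold in batch 1. It did not pass over all 45 pairs (adjusted p = 0.0554, limma) and passed with the replicate block (0.0250, limma). With the block and without Inh_Lamp5 it did not pass (adjusted p = 0.0675, limma).

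Lamp5 interneurons, which include neurogliaform cells, were annotated at Y2 only. Y2 replicate 1 held 52 Inh_Vip and 75 Inh_Lamp5 nuclei, a ratio of 0.693 (95% interval 0.477 to 1.00). Y2 replicate 2 held 178 and 154, a ratio of 1.16 (0.926 to 1.44). The order of the 2 types thus differed between the adult animals, and both intervals reached the ratio of 1. In the neonates 0 Inh_Lamp5 nuclei stood beside 618 and 804 Inh_Vip nuclei. Against the limit of 3 counts per library, Vip nuclei were at least 206-fold and at least 268-fold more numerous. The fitted age difference of this pair (adjusted p = 0.00142, limma) rests on the added 0.5 nuclei. With cluster 20 counted as Inh_Lamp5, Inh_Vip outnumbered that type by 3.94-fold and 3.42-fold in D0 replicates 1 and 2. The pair no longer passed then (adjusted p = 0.122, limma). After adjustment 0 of the 9 Vip pairs passed, and of all 45 pairs 0 passed (limma). Before adjustment 5 of the 9 Vip pairs had a p under 0.05. In the quasi-binomial model as annotated, 0 Vip pairs passed and 1 had an unadjusted p under 0.05. Of all 45 pairs 1 passed in that model. The unadjusted values were not counted over all pairs, so they cannot set Inh_Vip apart.

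Since no neonatal nucleus was annotated Inh_Lamp5, both types of caudal origin were also counted together. Inh_Vip plus Inh_Lamp5 made up 35.3% and 27.5% of neonatal interneurons, and 21.0% and 25.4% of adult interneurons in replicates 1 and 2. In batch 2 the counting intervals of the 2 ages overlapped (25.9% to 29.2% at D0 and 23.1% to 27.9% at Y2). The log odds difference between ages (Y2 minus D0) fell in size from -1.31 for Inh_Vip alone to -0.41 for both types, and it still passed (adjusted p = 0.0357, limma). The unadjusted p was the same, hence the largest of the interneuron set. The other interneuron types thus passed too, and the call does not set the pooled types apart. Over all nuclei the log odds difference was -1.06 for both types against -1.82 for Inh_Vip alone, and did not pass (adjusted p = 0.107, limma). Within the pooled pair, Inh_Vip nuclei were 40.9% in Y2 replicate 1 and 53.6% in Y2 replicate 2.

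Set against Inh_Sst plus Inh_Pvalb, the types of medial origin, the neonatal Vip ratio was 0.544 in replicate 1 and 0.380 in replicate 2, and the adult ratio 0.109 in replicate 1 and 0.183 in replicate 2. It was 3.22-fold higher at D0 on average (batch 1, 4.99-fold; batch 2, 2.08-fold). With Inh_Lamp5 added to the numerator the adult ratios became 0.266 and 0.341, and the age difference became 1.51-fold (2.05-fold within batch 1, 1.12-fold within batch 2). The two-sided exact permutation test gave p = 0.333 for both comparisons, the smallest value that 2 against 2 libraries allow.

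**Figure D3:**
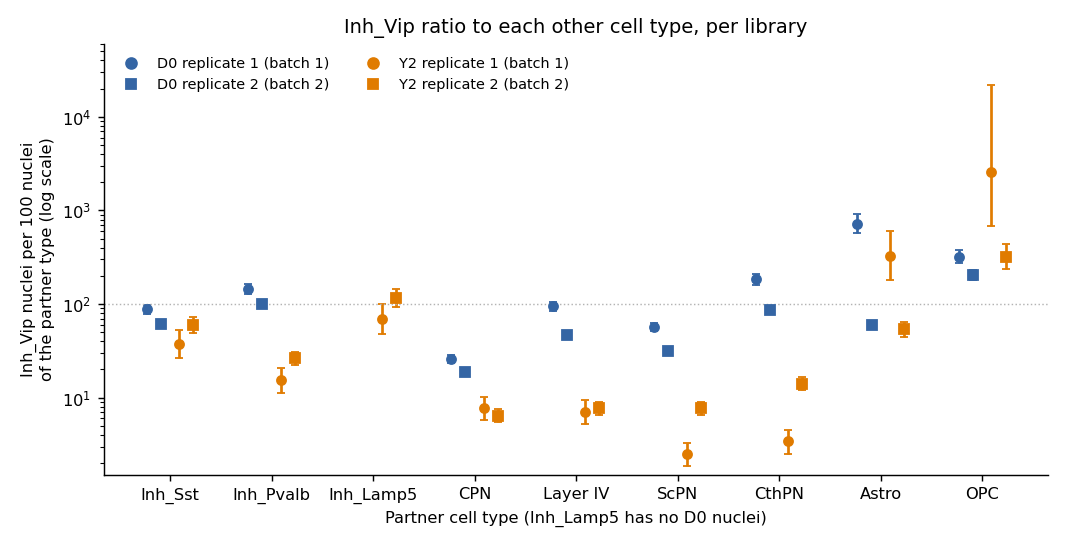
Inh_Vip nuclei per 100 nuclei of each other type (y axis, log scale; the dotted line marks equal numbers) for each partner type (x axis), with 1 point per library and bars for exact 95% intervals of counting error. The Y2 points lie below the D0 points for Inh_Sst, Inh_Pvalb, CPN, Layer IV, ScPN and CthPN, by very little for Inh_Sst in replicate 2 (61.0 at D0 and 60.1 at Y2), while the ages overlap for Astro and OPC.

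The cells counted here as projection neurons are glutamatergic. Against each of the 4 types, the Vip ratio was lower in every adult library than in every neonatal library. These 4 ratios share the same Vip counts. The ages also did not overlap in 72.2% of all pairs without Inh_Lamp5, so the separation is not particular to Inh_Vip. Over all projection neurons the neonatal libraries held 13.9 and 8.47 Inh_Vip nuclei per 100, and the adult libraries 1.04 and 2.06. The ratio was 7.41-fold higher at D0 (13.4-fold within batch 1, 4.12-fold within batch 2). The two-sided exact permutation test again gave p = 0.333. With Inh_Lamp5 added to the numerator the difference was 3.47-fold, with 5.47-fold and 2.21-fold in batches 1 and 2.

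Callosal neurons, which link the hemispheres, gave similar age differences of the Vip ratio in both batches. Per 100 CPN nuclei the neonates had 25.9 and 18.7 Inh_Vip nuclei in replicates 1 and 2, and the adults 7.75 and 6.44. Replicate 1 was the higher library at both ages, and the age difference was 3.35-fold and 2.90-fold in batches 1 and 2. The fitted difference was 3.10-fold (95% interval 0.817 to 11.7) and did not pass (adjusted p = 0.151, limma, which shares its estimate of spread over all pairs). Layer IV neurons, the main target of thalamic input, gave 94.8 and 46.5 Inh_Vip nuclei per 100 at D0, and 7.08 and 7.69 at Y2. The D0 animals differed by 2.04-fold, while the counting intervals of the Y2 animals overlapped. The ratio was 8.95-fold higher at D0 (95% interval 2.15 to 37.2, adjusted p = 0.0386, limma), but without Inh_Lamp5 in the set the adjusted p was 0.0983. It also lost the call without D0 replicate 1 (adjusted p = 0.284), D0 replicate 2 (0.169) or Y2 replicate 1 (0.0634).

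The ratios to the deep-layer projection neurons differed more between the 2 adults than those to CPN and Layer IV did. The adults also differed in these partners' own shares of all nuclei. In Y2 replicates 1 and 2, ScPN took 36.8% and 22.3%, and CthPN 27.2% and 12.3%. By contrast CPN took 11.9% and 26.7%, and Layer IV 13.1% and 22.4%. The ratios and their batch differences carry these shares as well as the Vip counts. For subcerebral neurons, which project below the cerebrum, there were 57.3 and 31.8 Inh_Vip nuclei per 100 ScPN nuclei in D0 replicates 1 and 2. The Y2 libraries held 2.52 and 7.72 per 100, which differed by 3.07-fold. The ratio was 9.64-fold higher at D0 (95% interval 1.82 to 51.1, adjusted p = 0.0554, limma). It passed with the replicate block (0.00724, limma) but not with the block and without Inh_Lamp5 (adjusted p = 0.0636, limma). It was 5.52-fold without Y2 replicate 1 and 16.8-fold without Y2 replicate 2, each time with a single adult library. Within batch 2 it was 4.12-fold, below the 6.05-fold of Layer IV. For corticothalamic neurons, which project to the thalamus, there were 184 and 85.7 Inh_Vip nuclei per 100 CthPN nuclei at D0, and 3.40 and 14.04 at Y2. Vip nuclei outnumbered CthPN nuclei in D0 replicate 1 only. The ratio was 18.1-fold higher at D0 (95% interval 2.80 to 116, adjusted p = 0.0386, limma, and 0.0983 without Inh_Lamp5 in the set). The within-batch differences ran from 54.0-fold in batch 1 to 6.11-fold in batch 2. The call was lost without D0 replicate 1 (adjusted p = 0.256), D0 replicate 2 (0.165) or Y2 replicate 1 (0.0634), with log2 differences of -3.62, -4.72 and -3.16 against -4.17 with all libraries. Without Y2 replicate 2, which leaves Y2 replicate 1 as the only adult, the difference was -5.19 on the log2 scale.

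Ordered by the fitted age difference of the Vip ratio, the neuronal types found at both ages ran from Inh_Sst over CPN, Inh_Pvalb, Layer IV and ScPN to CthPN. How far partners differ from each other is the age difference of the partners' own ratio, which was part of the same fit. No neighbours in the order passed: the adjusted p was 0.333 for CPN against Inh_Sst, 0.357 for CPN against Inh_Pvalb, 0.529 for Layer IV against Inh_Pvalb, 0.928 for Layer IV against ScPN and 0.354 for ScPN against CthPN (limma). The order of Layer IV and ScPN turned without Y2 replicate 1, with log2 differences of -3.11 and -2.46. The ends of the order gave an adjusted p of 0.0386 for CthPN against Inh_Sst, but this too did not pass with the Inh_Lamp5 pairs left out.

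**Figure D4:**
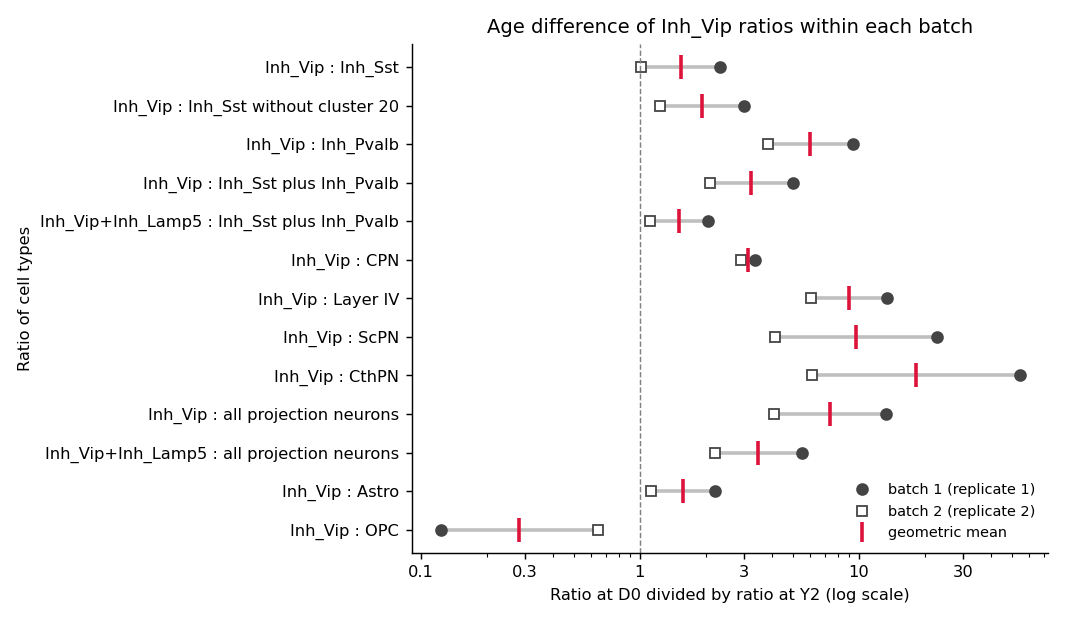
Ratio at D0 divided by ratio at Y2 (x axis, log scale; dashed line at 1) for each ratio of cell types (y axis), with filled circles for batch 1, open squares for batch 2 and red marks for the geometric mean. The difference is larger in batch 1 than in batch 2 for every neuronal partner found at both ages, from 3.35 and 2.90 for CPN to 54.0 and 6.11 for CthPN, and it is 1.01 in batch 2 for Inh_Sst.

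The ratios to glia overlapped between the ages. Per 100 astrocytes there were 719 Inh_Vip nuclei in D0 replicate 1, 60.2 in D0 replicate 2, 325 in Y2 replicate 1 and 53.8 in Y2 replicate 2. The libraries of a batch resembled each other more than those of an age (adjusted p = 0.725 for the age difference, limma). The astrocyte share itself was higher in replicate 2 than in replicate 1 by 7.12-fold at D0 and 11.2-fold at Y2. OPCs, the precursors of myelinating cells, were the only type found at both ages to which the mean Vip ratio was higher at Y2. There were 320 and 205 Inh_Vip nuclei per 100 OPCs at D0, and 2600 and 318 at Y2. The value of Y2 replicate 1 rests on 2 OPCs (95% interval of the ratio 6.84 to 220), and the difference did not pass (adjusted p = 0.285, limma). The log2 difference of 1.67 became 0.31 without Y2 replicate 1 (adjusted p = 0.770, limma). Without Y2 replicate 2, which leaves the library with 2 OPCs as the only adult, it was 3.04 (adjusted p = 0.0333, limma).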

How the data were processed

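The authors released nuclei from frozen cortex, sorted DAPI-positive nuclei and built 3-prime droplet libraries. Per the labels they used Cell Ranger 2.1.0 and Seurat. The study's methods describe a custom marmoset transcriptome with unspliced RNA, thinning of libraries to equal complexity, a minimum of detected genes, batch correction with removal of poorly explained nuclei, clustering and naming by markers. Such filters can remove types unequally, so ratios describe retained nuclei. For doublets, no treatment is given in the sources used here. The deposited table holds labels of nuclei, no gene values, and 0 nuclei lacked a sample.

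Nuclei were counted per library, which was the replicate. Replicate numbers follow the sample descriptions, from which some sample titles depart. The study's methods describe more libraries than the 4 analysed here, and their number per batch was unequal there. The deposited batch column equals the replicate number, so the replicate block was fitted as an alternative. The correlation of same-number deviations was 0.417 over 9 types. However, the same replicate number had the higher share at both ages only for Layer IV and Astro. Astro differed by 7.12-fold at D0 and 11.2-fold at Y2. The correlation therefore does not show that Inh_Vip shares pair by number. Logit shares and log2 ratios, each with 0.5 nuclei added, were compared with limma 3.58.1 in R 4.3.3 (two-sided, Benjamini-Hochberg over all types or all 45 pairs, threshold 0.05). For the interneuron shares limma gave every type 1 common spread, pooled over shares that sum to the whole and are not independent. The same held for the shares of all nuclei with the replicate block. Counts, intervals and exact tests were made with scipy 1.17.1 and pandas 2.3.3 under Python 3.11.15. The code was tested on simulated tables with the same spread between libraries for every type, unlike the libraries here. That test does not bear on the calls in these data. All cell types and all interneuron clusters were named by rule. Members, lists and tests were chosen with earlier results of these data known.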

Additional observations from a re-analysis of the deposited data

Results flagged for a closer look

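For 8 measures of Inh_Vip the 2 animals of an age stood in opposite order at D0 and Y2: replicate 1 was the higher library at D0 and the lower one at Y2. The age difference in batch 1 was accordingly a multiple of that in batch 2. The multiple was 3.12 for the share of all nuclei and 2.02 for the share of interneurons. For the ratios it was 2.30 to Inh_Sst, 2.43 to Inh_Pvalb, 2.21 to Layer IV, 5.53 to ScPN, 8.85 to CthPN and 3.24 to all projection neurons. These measures share the same Vip counts and are not independent. Since a batch has a single library of each age, no test of this was possible. The ratio to CPN did not have this pattern. It was not particular to Inh_Vip: the shares of Inh_Sst, Inh_Pvalb, CPN and OPC among all nuclei stood in the same order, with Y2 intervals that overlapped for Inh_Sst and Inh_Pvalb and D0 intervals that overlapped for OPC.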

How the results depend on the processing

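The direction of the age difference stayed the same under every alternative for the Inh_Vip shares and for its ratios to the 6 neuronal types found at both ages, to Inh_Lamp5 and to OPC. Over all nuclei the log odds difference (-1.82) no longer passed with cluster 20 counted as Inh_Lamp5 (-1.82, adjusted p = 0.0598, limma), with Inh_Lamp5 added to Inh_Vip (-1.06) and in the quasi-binomial model (-1.62), and lay between -2.14 and -1.51 when single libraries were left out. Among interneurons (-1.31) it did not pass in the quasi-binomial model (-1.16, adjusted p = 0.0789) and lay between -1.57 and -1.06 without single libraries. The 3 Vip ratios that passed (13 of all 45 pairs) became 5 with the replicate block (26 of 45). They also became 5 with library-specific clusters left out (26 of 45), and 1 of these 5 is Astro. The number was 0 with cluster 20 counted as Inh_Lamp5 and 0 in the quasi-binomial model. With Inh_Lamp5 left out it was 0, with and without the block. Leaving out single libraries leaves 1 library in an age, so passing ratios are not counted for it here. The block changed no call on an Inh_Vip share. The log2 ratio to Astro (-0.67) lay between -2.45 and 1.12 without single libraries, reversed without D0 replicate 1 (1.12) and Y2 replicate 2 (0.62), and reversed with library-specific clusters left out (6.54), which removes the Y2 astrocytes. The exact sign-flip test over 2 pairs gave p = 0.5, the smallest it allows. Leaving out nuclei with shared barcodes, added after seeing the data as were Inh_Lamp5 left out among interneurons and with the block, changed no call. Depth limits Y2 replicate 1 most, with 52 Inh_Vip nuclei.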
